A study of Mus musculus with 6 samples.

Results

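Cytochrome c oxidase, complex IV of the respiratory chain, was examined through the 8 genes that encode its paired tissue isoforms: Cox6a2, Cox7a1 and Cox8b, their partners Cox6a1, Cox7a2 and Cox8a, and the pair Cox4i1 and Cox4i2. The members were the rows that carried these gene names in the annotated expression table, 8 of 26881 genes. All 8 passed the filter on low values, a mean of at least 1 FPKM (fragments scaled to exon length and library size), which kept 11017 genes. RNA sequencing was done on hearts of 2-week-old mice, 3 labelled wild-type (WT) and 3 labelled CXXC1 null (Cfp1-cKO). Cfp1, encoded by Cxxc1, is a CpG-binding subunit of the SETD1 histone H3 lysine 4 methyltransferase complexes. In the Cfp1-cKO mice, on a C57BL/6 background, both Cfp1 alleles were floxed and Cre was driven by the Myh6 promoter, so the deletion was meant for cardiomyocytes while the other cells of the heart kept the gene. WT animals were littermates, and the sources used here do not give their allele combination. Nothing in the labels says whether a library came from 1 heart or several, and the p-values therefore reflect the spread among the 6 libraries, which may be technical.

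Complex IV takes electrons from cytochrome c and passes them to oxygen while it pumps protons across the inner mitochondrial membrane. Its catalytic core is made of the mitochondrially encoded mt-Co1, mt-Co2 and mt-Co3 proteins, and the nuclear-encoded subunits around it help assembly and regulation. For subunits 6a, 7a and 8 rodents have a form that prevails in adult heart and skeletal muscle (Cox6a2, Cox7a1, Cox8b) and a ubiquitous form (Cox6a1, Cox7a2, Cox8a), and the heart moves from the ubiquitous to the muscle forms as it matures after birth. Cox4i1 is the ubiquitous form of subunit 4, and Cox4i2 is known as a form of lung, pericytes and oxygen-sensing cells. The comparison asked whether the levels of these genes, and the muscle share within each pair, differed between Cfp1-cKO and WT hearts.

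The members lie apart in the mouse genome (GRCm38, all protein-coding genes). The 3 muscle forms are on chromosome 7: Cox6a2 (ENSMUSG00000030785) at chr7:128205435-128206387 on the minus strand, Cox7a1 (ENSMUSG00000074218) at chr7:30184144-30186078 on the plus strand and Cox8b (ENSMUSG00000025488) at chr7:140898945-140900446 on the minus strand. Their partners are on other chromosomes, with Cox6a1 at chr5:115345642-115348981, Cox7a2 at chr9:79755361-79759878 and Cox8a at chr19:7215158-7217616, all on the minus strand. Cox4i1 is at chr8:120668222-120674207 and Cox4i2 at chr2:152754173-152765037, both on the plus strand.

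Whether reads of a muscle form could be counted for its partner depends on how alike the transcripts are, so the stretch around the longest run shared by each pair is shown, with that run in capitals. The sequences are coding sequence, 5′ to 3′, from GENCODE M21 transcripts on GRCm38.
Cox6a2: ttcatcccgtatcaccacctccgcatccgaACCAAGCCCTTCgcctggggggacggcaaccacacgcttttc
Cox6a1: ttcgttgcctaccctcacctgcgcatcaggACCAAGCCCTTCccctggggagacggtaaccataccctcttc
Cox7a1: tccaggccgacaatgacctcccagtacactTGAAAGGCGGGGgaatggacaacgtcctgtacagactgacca
Cox7a2: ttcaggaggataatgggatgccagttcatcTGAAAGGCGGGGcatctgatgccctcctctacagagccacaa
Cox8b: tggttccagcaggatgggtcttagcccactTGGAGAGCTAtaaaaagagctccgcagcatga
Cox8a: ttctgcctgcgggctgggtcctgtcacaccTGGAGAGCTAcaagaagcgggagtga
Cox4i2: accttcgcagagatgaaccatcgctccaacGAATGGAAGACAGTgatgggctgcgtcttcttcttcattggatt
Cox4i1: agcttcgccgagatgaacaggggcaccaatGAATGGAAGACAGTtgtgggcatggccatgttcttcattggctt
The coding sequences were 66.6% identical for Cox6a2 and Cox6a1, 67.4% for Cox7a1 and Cox7a2, 68.6% for Cox8b and Cox8a and 70.5% for Cox4i2 and Cox4i1, over the aligned bases. The longest exact run between the partners was 12 bases for the Cox6a and Cox7a pairs, 10 for the Cox8 pair and 14 for the Cox4 pair, and no longer run was found when whole transcripts were compared.

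Because Cfp1 binds unmethylated CpG, the promoters are shown with every CpG in capitals. Each line is the 160 bases before the RefSeq transcription start, 5′ to 3′ on the gene's own strand, in GRCm38.p6. They are chr7:30184011-30184170 (plus) for Cox7a1, chr7:140900447-140900606 (minus) for Cox8b, chr5:115348959-115349118 (minus) for Cox6a1, chr9:79759854-79760013 (minus) for Cox7a2 and chr19:7217617-7217776 (minus) for Cox8a. Of the 8 members 5 had an entry in the promoter table, and Cox6a2, Cox4i1 and Cox4i2 had none.
Cox7a1: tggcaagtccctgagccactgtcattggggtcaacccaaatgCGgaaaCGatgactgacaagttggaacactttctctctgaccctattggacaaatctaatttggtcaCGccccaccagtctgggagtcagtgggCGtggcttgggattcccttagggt
Cox8b: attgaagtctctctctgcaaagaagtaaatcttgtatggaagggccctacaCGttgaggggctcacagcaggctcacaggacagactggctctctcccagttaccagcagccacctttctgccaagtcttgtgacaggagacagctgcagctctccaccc
Cox6a1: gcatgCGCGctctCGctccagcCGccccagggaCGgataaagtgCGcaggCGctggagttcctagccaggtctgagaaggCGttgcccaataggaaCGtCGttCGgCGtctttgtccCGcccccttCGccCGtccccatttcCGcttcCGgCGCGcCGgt
Cox7a2: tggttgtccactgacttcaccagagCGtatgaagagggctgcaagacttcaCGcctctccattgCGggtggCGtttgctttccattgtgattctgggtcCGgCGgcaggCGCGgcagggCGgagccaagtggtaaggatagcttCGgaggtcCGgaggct
Cox8a: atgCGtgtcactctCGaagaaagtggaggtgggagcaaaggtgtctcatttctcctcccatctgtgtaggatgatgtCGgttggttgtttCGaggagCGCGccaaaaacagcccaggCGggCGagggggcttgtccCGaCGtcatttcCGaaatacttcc
The full RefSeq window had 300 bases, 250 before the start and 50 from the start onward. Over it the 2 muscle-form promoters held fewer CpG than the 3 promoters of the ubiquitous forms. Cox8b had 2 CpG and Cox7a1 had 7, against 19 in Cox8a, 20 in Cox7a2 and 32 in Cox6a1. Among 32851 mouse promoters of the same length the median was 7, and 23.3% had as few as Cox8b or fewer, 51.4% as few as Cox7a1, 73.5% as few as Cox8a, 75.2% as few as Cox7a2 and 91.4% as few as Cox6a1. The contrast did not extend to every complex IV gene that was lower in Cfp1-cKO hearts. Of the other subunits called lower, Cox5b had 27 CpG and Cox7b had 5, which is under the median. Cox5a and Cox7c, not called but with every Cfp1-cKO value below every WT value, had 35 and 14 CpG. CpG number was not tested against expression.

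**Figure D1:**
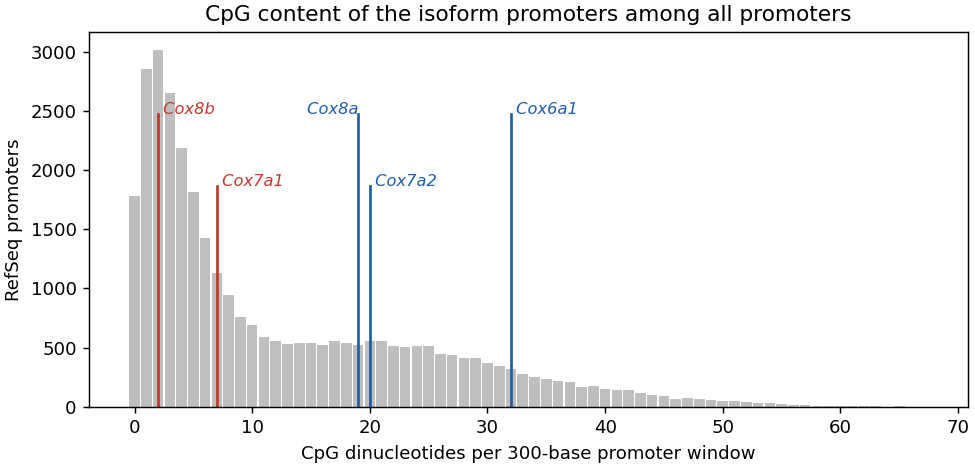
Number of RefSeq promoters (vertical axis) by the number of CpG dinucleotides in the window of 300 bases (horizontal axis), with the 5 member promoters marked as lines, red for muscle forms and blue for ubiquitous forms. Cox8b (2) and Cox7a1 (7) lie at or below the median of 7, and Cox8a (19), Cox7a2 (20) and Cox6a1 (32) lie above it.

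Both strands of the same windows were searched for 7 sequence motifs. Motifs may overlap each other, and a site that matches at the same position on both strands, as every E-box does, was counted once. The NRF1 motif, written GCGCANGCG, is bound by a regulator of respiratory genes. It was found at 3 positions of the Cox6a1 promoter, in none of the other 4 and in 6.2% of all promoters. The ETS motif CCGGAAG was at 1 position in Cox6a1 and 2 in Cox8a, and in 8.9% of all promoters. The ERR motif TNAAGGTCA was in none of the 5 and in 1.3% of all, while the MEF2-type motif CTANNNNTA was once in Cox7a1 and once in Cox7a2, and in 21% of all. The E-box CANNTG was in Cox7a1 (1), Cox8b (2), Cox7a2 (1) and Cox8a (1), and in 72.3% of all promoters. The GC box GGGCGG was in Cox6a1 (2) and Cox7a2 (1), and in 35.7% of all. The TATA box TATAAA was in Cox8b alone of the 5, and in 13.6% of all. Its first base was at position 5, with the annotated start counted as position 1. A match is a description of letters and no evidence of binding.

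The libraries held between 16672652 and 22700811 fragments assigned to genes. Cxxc1 averaged 10.9 ± 1.78 FPKM (SD, n = 3) in WT and 8.90 ± 0.972 in Cfp1-cKO hearts, with overlapping values and a log2 fold change of -0.26 ± 0.16 (SE; adjusted p = 0.249, limma), so the mRNA over the whole gene did not separate the genotypes. All 12 cardiomyocyte markers were present in every library, as the label heart requires, at a summed 10470 to 20160 FPKM. WT replicate 2 stood apart from the other WT libraries in this sum, 11280 against 19670 and 20160, largely through the sarcomeric actin Actc1. The 12 markers of lung epithelium summed to 0.348 to 3.94 FPKM in WT and 3235 to 4907 FPKM in Cfp1-cKO libraries, and all 12 were called higher. Surfactant protein C, Sftpc, was at 0 in WT replicates 1 and 3 and at 0.330 FPKM in WT replicate 2, against 1202, 2163 and 3232 FPKM in Cfp1-cKO replicates 1, 2 and 3. Macrophage markers summed to 45.7 to 61.0 FPKM in WT and 404 to 789 FPKM in Cfp1-cKO libraries, with 3 of 4 tested called higher. Of the other lists, 2 of 7 endothelial, 1 of 7 fibroblast and 2 of 6 smooth muscle markers were called higher, 0 of 5 red cell markers were called, and of 6 atrial markers 3 were called lower and 1 higher. Over all tested genes 21.1% were called higher and 1.68% lower. The Cfp1-cKO libraries labelled heart therefore also held transcripts that define lung, and what part these had in the differences between genotypes was not tested.

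The muscle form of subunit 6a was the member that differed most. Cox6a2, the heart and skeletal muscle form of a small transmembrane subunit, was at 1909, 2428 and 1206 FPKM in WT replicates 1, 2 and 3, and the Cfp1-cKO replicates 1, 2 and 3 had 738, 676 and 568 FPKM. Every Cfp1-cKO library was below every WT library, and the WT libraries spread more widely. The mean fell from 1848 ± 614 (SD, n = 3) to 660 ± 86.0 FPKM, a ratio of 0.357, and the log2 fold change of -1.43 ± 0.26 (SE) was called (adjusted p = 0.0113, limma). Among all 11017 genes tested, Cox6a2 had the 28th lowest log2 fold change. In a bulk sample, fewer cells of a type and less RNA per cell cannot be told apart, and this holds for all levels that follow.

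Cox7a1, the heart and muscle form of the subunit that faces complex III in supercomplexes, was also lower. It was at 278, 221 and 280 FPKM in the WT libraries, while Cfp1-cKO replicates 1, 2 and 3 had 185, 129 and 137 FPKM. The groups did not overlap, with Cfp1-cKO replicate 1 nearest to WT. The mean fell from 260 ± 33.8 to 150 ± 30.5 FPKM (SD, n = 3), with a log2 fold change of -0.79 ± 0.19 (SE; adjusted p = 0.0243, limma). This call was lost when any of 3 libraries was left out, at adjusted p = 0.0848 without WT replicate 1, 0.0998 without Cfp1-cKO replicate 2 and 0.0712 without Cfp1-cKO replicate 3 (limma).

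Cox8b, the muscle form of the smallest nuclear-encoded subunit, did not pass the test. It was at 413, 412 and 316 FPKM in WT replicates 1, 2 and 3 and at 315, 234 and 181 FPKM in Cfp1-cKO replicates 1, 2 and 3. The groups met without crossing, since WT replicate 3 and Cfp1-cKO replicate 1 were nearly equal. The means were 380 ± 56.2 and 244 ± 67.4 FPKM (SD, n = 3), and the log2 fold change was -0.67 ± 0.22 (SE; adjusted p = 0.0606, limma). Without either of these neighbouring libraries the difference was called, at adjusted p = 0.0442 without WT replicate 3 and 0.0410 without Cfp1-cKO replicate 1 (limma). Leaving out the library nearest to the other group widens the gap by itself, so these calls add no support. Without any other library the adjusted p was between 0.120 and 0.167 (limma), and the log2 fold change was -0.47 without Cfp1-cKO replicate 3.

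The 3 ubiquitous partners showed no such separation, and all 3 overlapped between genotypes. Cox6a1, the form of subunit 6a found in most tissues, was at 120, 147 and 116 FPKM in the WT libraries, while Cfp1-cKO replicates 1, 2 and 3 had 130, 166 and 147 FPKM. Its log2 fold change was 0.21 ± 0.16 (SE; adjusted p = 0.341, limma). Cox8a was at 258, 310 and 204 FPKM in the WT libraries, while Cfp1-cKO replicates 1, 2 and 3 had 280, 321 and 286 FPKM, a log2 fold change of 0.22 ± 0.18 (SE; adjusted p = 0.373, limma). In both genes the Cfp1-cKO mean was the higher on the deposited scale, and the sign turned under median-of-ratios scaling, to -0.23 for each.

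Cox7a2, the ubiquitous form of subunit 7a, was at 336, 369 and 258 FPKM in the WT libraries, while Cfp1-cKO replicates 1, 2 and 3 had 320, 257 and 238 FPKM. The means were 321 ± 57.0 and 272 ± 43.2 FPKM (SD, n = 3) and the log2 fold change was -0.24 ± 0.19 (SE; adjusted p = 0.352, limma). Its log2 fold change was -0.68 under median-of-ratios scaling (adjusted p = 0.1475, limma), and its sign turned to 0.24 when libraries were scaled to equal cardiomyocyte markers. A p above the threshold in these partners does not show that they were equal in the genotypes.

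In the subunit 4 pair it was the ubiquitous form that was called lower. Cox4i1, through which ATP inhibits the enzyme, was at 397, 463 and 393 FPKM in the WT libraries, while Cfp1-cKO replicates 1, 2 and 3 had 279, 262 and 282 FPKM. The groups were well apart and the Cfp1-cKO libraries lay close together, with means of 417 ± 39.4 and 275 ± 11.1 FPKM (SD, n = 3). The log2 fold change was -0.60 ± 0.14 (SE; adjusted p = 0.0256, limma). Leaving out any library other than WT replicate 3 moved the adjusted p to between 0.0503 and 0.104 (limma).

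Cox4i2 was scarce in all 6 libraries, with 55 to 106 fragments behind each value. It was at 3.52, 3.70 and 4.09 FPKM in the WT libraries, while Cfp1-cKO replicates 1, 2 and 3 had 5.80, 8.07 and 4.72 FPKM. Every Cfp1-cKO library was above every WT library, and the log2 fold change of 0.57 ± 0.19 (SE) was not called (adjusted p = 0.0606, limma). Pericytes are the cell type in which Cox4i2 is best known in heart. Of 9 pericyte markers Notch3 and Cspg4 were called higher and Vtn lower, against 21.1% and 1.68% of all tested genes. The summed level of the 9 was 250 to 310 FPKM in WT and 294 to 358 FPKM in Cfp1-cKO libraries. The lung epithelial sum given above was also higher in Cfp1-cKO libraries, at 4555, 3235 and 4907 FPKM in replicates 1, 2 and 3. The part of pericyte or lung RNA in the Cox4i2 level was not tested.

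Counted together, 3 of 8 members were called lower and 0 were called higher by limma. Over all tested genes 1.68% were called lower and 21.1% higher, so the members' calls ran against the direction of most calls. Cox4i2 alone was on the higher side at an unadjusted p under 0.05 (0.0171, limma), and voom on the recovered fragments also called 0 members higher. In 4 of 8 members every Cfp1-cKO value lay below every WT value, against 3.23% of all tested genes, and in 1 of 8, Cox4i2, every value lay above, against 46.4%. The median log2 fold change was -0.79 over the 3 muscle forms and 0.21 over the 3 ubiquitous partners, beside 0.35 over all tested genes. Median-of-ratios scaling, which sets the median of all genes to 0.00, again called 3 members lower and 0 higher, with 3.25% of all genes lower and 3.73% higher.

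**Figure D2:**
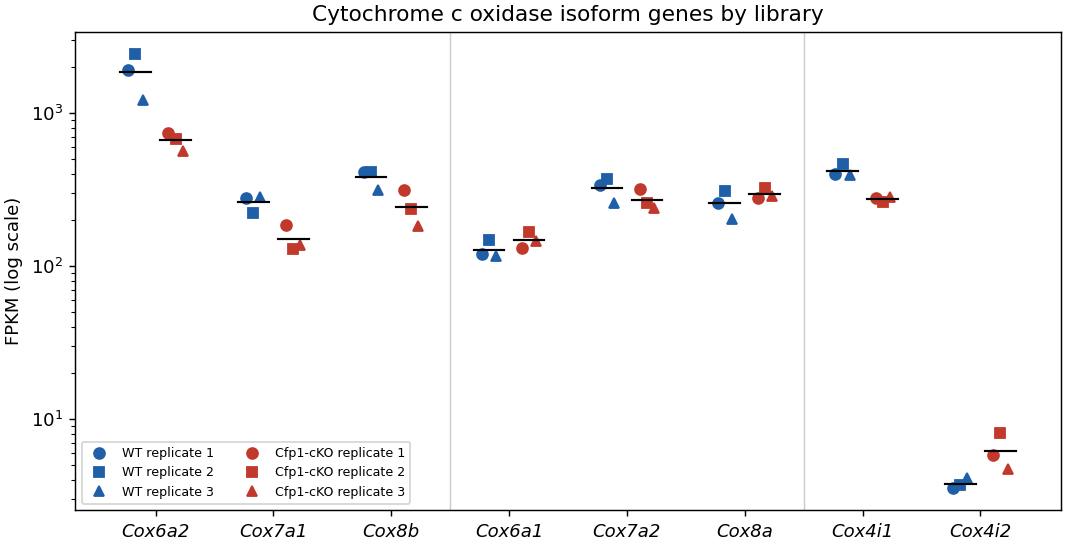
FPKM of each member (log axis) in the 6 libraries, blue for WT and red for Cfp1-cKO, with a marker shape for each replicate number and a black line at the group mean. Cox6a2, Cox7a1, Cox8b and Cox4i1 have every Cfp1-cKO point under every WT point, Cox6a1, Cox7a2 and Cox8a overlap, and Cox4i2 lies far under the rest at 3.52 to 8.07 FPKM.

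A share of a pair's summed FPKM is taken within a library, so it does not depend on how libraries are scaled to each other. With 3 libraries against 3 the exact permutation test over 20 assignments cannot give a p under 0.10. Cox6a2 made up 94.1%, 94.3% and 91.2% of the Cox6a pair in WT replicates 1, 2 and 3 and 85.0%, 80.3% and 79.5% in Cfp1-cKO replicates 1, 2 and 3. The muscle form stayed the main one in every library, but the groups did not overlap. The mean share was 93.2 ± 1.72% in WT and 81.6 ± 2.97% in Cfp1-cKO hearts (SD, n = 3), a difference of -11.6 points (p = 0.10, exact permutation test, two-sided, the smallest it can give). As a ratio, Cox6a2 was on average 14.3 times Cox6a1 in WT and 4.54 times in Cfp1-cKO hearts.

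In the Cox7a pair the muscle form was near or under an equal share of the summed FPKM. Cox7a1 made up 45.2%, 37.4% and 52.1% in WT replicates 1, 2 and 3 and 36.7%, 33.5% and 36.5% in Cfp1-cKO replicates 1, 2 and 3. WT replicate 2 was close to the Cfp1-cKO libraries, with 37.4% against 36.7%. The means were 44.9 ± 7.33% and 35.5 ± 1.80% (SD, n = 3), a difference of -9.38 points (p = 0.10, exact permutation test, two-sided), and it ranged from -5.80 points without WT replicate 3 to -13.1 points without WT replicate 2.

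On the FPKM scale Cox8b was the larger part of its pair in WT hearts, at 61.6%, 57.1% and 60.8% in replicates 1, 2 and 3. In Cfp1-cKO hearts it was at 53.0%, 42.2% and 38.8%, so that Cox8a exceeded it in replicates 2 and 3. The means were 59.8 ± 2.41% and 44.7 ± 7.41% (SD, n = 3), a difference of -15.1 points (p = 0.10, exact permutation test, two-sided). Cox4i2 was a minor part of its pair throughout, at 0.880%, 0.794% and 1.03% in WT and 2.03%, 2.99% and 1.64% in Cfp1-cKO replicates 1, 2 and 3. Its mean share was 0.901 ± 0.119% and 2.22 ± 0.692% (SD, n = 3), a difference of 1.32 points (p = 0.10, exact permutation test, two-sided). Adjusted over the 4 pairs each p was 0.10 in these exact permutation tests, the smallest that this test can give with 3 libraries a group.

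**Figure D3:**
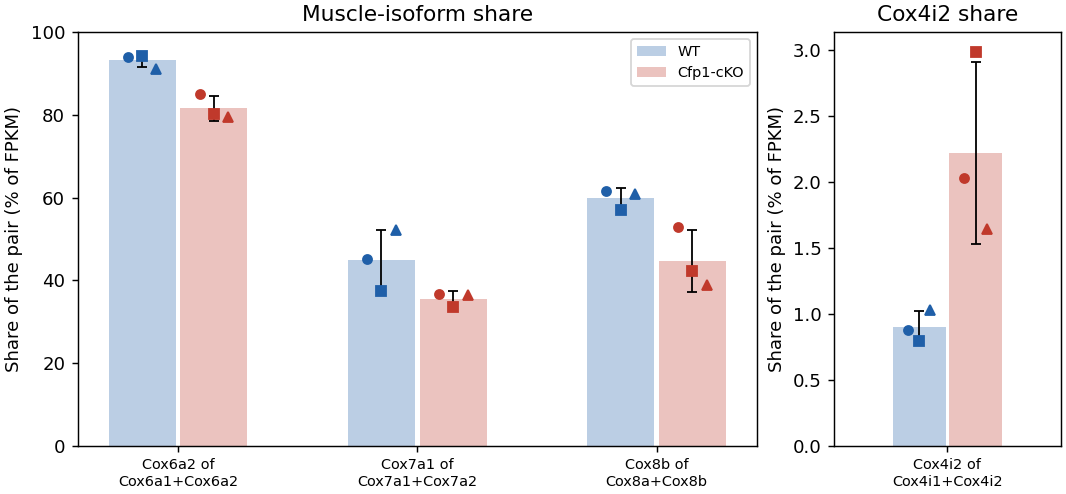
Share of each pair's summed FPKM (percent) taken by the muscle form, at left, and by Cox4i2, at right on its own axis; bars are means, error bars SD over 3 libraries, and points the libraries with shapes for replicate numbers 1 (circle), 2 (square) and 3 (triangle). The Cfp1-cKO points lie under the WT points in the 3 muscle pairs and above them in the Cox4 pair.

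Shares were also taken from the recovered fragments, which are not divided by length. In WT replicates 1, 2 and 3, Cox8b then made up 51.4%, 46.7% and 50.6% of its pair, and Cox7a1 31.9%, 25.3% and 38.1%. In Cfp1-cKO replicates 1, 2 and 3, Cox8b made up 42.7%, 32.5% and 29.5%. Which form of the Cox8 pair was the larger therefore depended on the length scale. The differences were then -11.9 points for Cox6a, -7.96 for Cox7a and -14.7 for Cox8, and the widest 95% Wilson interval of a library's share in these pairs was 3.08 points. For Cox4i2 the difference in fragments was 0.683 points, 1.32 in FPKM, and the widest interval of 0.585 points was close to it. Such intervals cover counting error only. Lung epithelial markers summed to 4555, 3235 and 4907 FPKM in Cfp1-cKO replicates 1, 2 and 3. Of these sums Sftpc gave 1202, 2163 and 3232 FPKM, and the marker Scgb1a1 gave 2904, 405 and 671 FPKM. The part of lung RNA in the shares was not tested.

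The pairs were compared by the log2 ratio of muscle to ubiquitous form, on log2(FPKM + 1). This ratio differed by -1.64 between Cfp1-cKO and WT hearts for Cox6a, by -0.56 for Cox7a and by -0.88 for Cox8. The change in the Cox6a ratio minus that in Cox7a was -1.08 (p = 0.20), the change in Cox6a minus that in Cox8 was -0.76 (p = 0.10), and Cox7a minus Cox8 was 0.33 (p = 0.50), in exact two-sided permutation tests. Adjusted over these 3 comparisons the exact permutation p-values were 0.30, 0.30 and 0.50, and since this test cannot go below 0.10, it could not show a difference between pairs at 0.05.

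The summed level of each pair was compared in the same way. The Cox6a total went from 1975 ± 628 to 808 ± 82.1 FPKM (SD, n = 3), a log2 ratio of -1.24 (p = 0.10, exact permutation test, two-sided). The Cox7a total went from 581 ± 38.5 to 422 ± 72.7 FPKM (-0.47, p = 0.10) and the Cox4 total from 421 ± 39.3 to 281 ± 9.45 FPKM (-0.58, p = 0.10), by the same exact test. The Cox8 totals overlapped, at 638 ± 106 and 540 ± 65.1 FPKM (-0.24, p = 0.30, exact permutation test). Adjusted over the 4 pairs these exact permutation p-values were 0.133, 0.133, 0.30 and 0.133 for Cox6a, Cox7a, Cox8 and Cox4. Within the Cox6a pair the mean of Cox6a2 went from 1848 to 660 FPKM, and Cox6a1 averaged 128 and 147 FPKM.

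FPKM are divided by the annotated exon length of a gene, which need not be the length of the transcript present. The order of different genes given here therefore holds on that scale only. In WT hearts Cox6a2 (1848 FPKM) came first and did not overlap with Cox4i1 (417 FPKM). From there Cox4i1, Cox8b (380), Cox7a2 (321), Cox7a1 (260) and Cox8a (257 FPKM) each overlapped with the next, and Cox6a1 (128) and Cox4i2 (3.77 FPKM) stood below without overlap. In Cfp1-cKO hearts Cox6a2 (660 FPKM) again came first, followed by Cox8a (296), Cox4i1 (275), Cox7a2 (272), Cox8b (244) and Cox7a1 (150 FPKM). Cox8a was the member whose place differed most from WT, at place 2 against 6. Cox8b was at place 5 against 3 in WT, and Cox7a2 was at place 4 in both. The values of Cox7a2 and Cox8b overlapped in both genotypes. Neighbours overlapped from Cox8a through Cox6a1 (147 FPKM), and Cox4i2 (6.20 FPKM) was again the lowest.

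The size of each fold change depended on the scaling between libraries. Mitochondrially encoded genes took 52.9 to 59.8% of summed FPKM, and less in each Cfp1-cKO library than in each WT library, and the median gene was higher in Cfp1-cKO hearts by 0.35 on the log2 scale. Under median-of-ratios scaling the log2 fold changes, which are relative to that shift, were -1.88 for Cox6a2 (adjusted p = 0.0146), -1.24 for Cox7a1 (0.0199), -1.04 for Cox4i1 (0.0173) and -1.11 for Cox8b (0.0601), by limma. Cox4i2 was at 0.20 under that scaling. Libraries were also scaled to an equal mean log2 FPKM of the 12 cardiomyocyte markers. Cox6a2 was then still called lower, at -0.96 (adjusted p = 0.0338, limma). Cox7a1 at -0.32 (adjusted p = 0.380) and Cox4i1 at -0.12 (adjusted p = 0.744) were then not called, Cox8b was at -0.19 (adjusted p = 0.637), and Cox4i2 was called higher at 0.96 (adjusted p = 0.00943, limma). Under this scaling 6764 of 11017 tested genes were called higher, and the median log2 fold change was 0.73. Of 12 cardiomyocyte markers, 4 (Tnnt2, Myl3, Ryr2 and Pln) were themselves called lower and 0 higher on the deposited scale, with a median log2 fold change of -0.38. On that scale 1.68% of all tested genes were called lower and 21.1% higher. Members with exons summing to under 1000 bases were 7 of 8, and the 624 tested genes of that length had a median log2 fold change of 0.23.

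**Figure D4:**
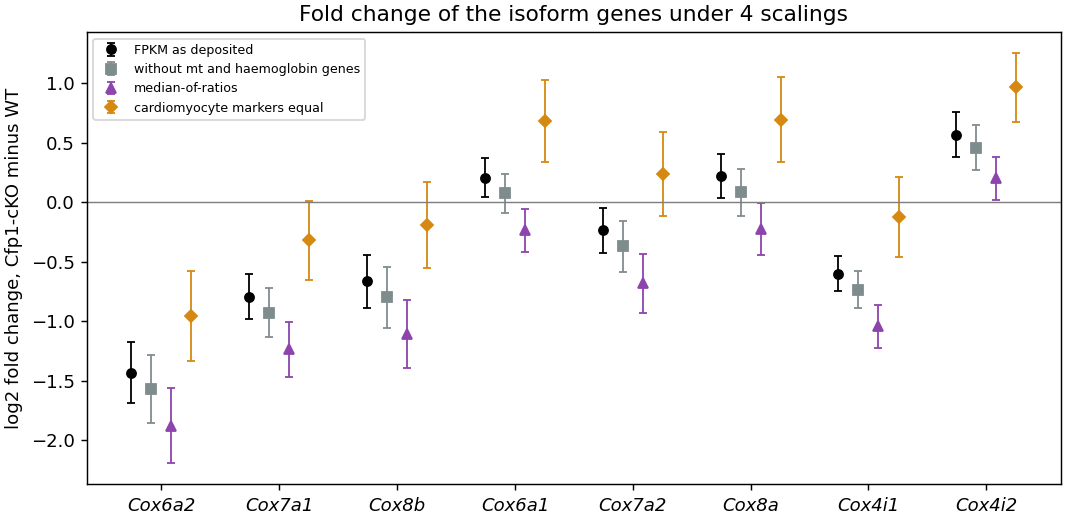
Log2 fold change, Cfp1-cKO minus WT, of each member (points) with its SE (bars) under 4 scalings: FPKM as deposited (black), without mitochondrial and haemoglobin genes (grey), median-of-ratios (purple) and equal cardiomyocyte markers (orange). Cox6a2 is under 0 in all 4, from -1.88 to -0.96, Cox7a1, Cox8b and Cox4i1 are also under 0 in all 4, and Cox6a1, Cox7a2 and Cox8a lie on either side of 0.

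Among the other genes of the complex, lower levels were seen in some nuclear-encoded subunits. Of 10 further subunits listed, 9 were in the table, 7 were tested, 2 were called lower and 0 higher, with a median log2 fold change of -0.44. Over all tested genes 1.68% were called lower and 21.1% higher, with a median of 0.35. Cox7b, a small transmembrane subunit, went from 609 ± 152 to 251 ± 25.1 FPKM (SD, n = 3), a log2 fold change of -1.25 ± 0.21 (SE; adjusted p = 0.00929, limma). Cox5b, the zinc-binding matrix subunit, went from 471 ± 40.0 to 279 ± 18.4 FPKM, a log2 fold change of -0.75 ± 0.15 (SE; adjusted p = 0.0142, limma), and was not called without WT replicate 1 (0.0654) or Cfp1-cKO replicate 2 (0.0662). Neither gene belongs to the isoform pairs above. Both calls were lost under cardiomyocyte-marker scaling, at -0.77 (adjusted p = 0.0677) for Cox7b and -0.28 (adjusted p = 0.454) for Cox5b, by limma.

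The most abundant subunits that were not called were Ndufa4 (810 and 745 FPKM, log2 fold change -0.14), Cox6b1 (788 and 678 FPKM, -0.22) and Cox7c (555 and 368 FPKM, -0.58, adjusted p = 0.067, limma) in WT and Cfp1-cKO hearts. Cox5a, named after its values were seen, had an adjusted p of 0.0448 (limma) at a log2 fold change of -0.44, short of the fold threshold of 0.5. Of the 3 mitochondrially encoded core subunits 0 were called by limma, and 0 had an unadjusted p under 0.05. mt-Co1 was at 120675, 123127 and 105023 FPKM in the WT libraries, while Cfp1-cKO replicates 1, 2 and 3 had 106207, 86289 and 82350 FPKM (log2 fold change -0.35, adjusted p = 0.188, limma). mt-Co2 averaged 167 and 142 FPKM (-0.23) and mt-Co3 averaged 23.3 and 19.0 FPKM (-0.29) in WT and Cfp1-cKO hearts. These 2 core subunits were listed orders of magnitude under mt-Co1, so their FPKM were not taken as levels comparable with it.

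Assembly and supercomplex factors were mostly not called. Of 26 listed, 23 were in the table and 21 were tested, of which 1 was called higher and 0 lower, with a median log2 fold change of 0.22. Over all tested genes 21.1% were called higher and 1.68% lower, with a median of 0.35. That gene was Cox19, which takes part in copper handling during assembly, with a WT mean of 5.43 ± 1.19 FPKM and a Cfp1-cKO mean of 13.6 ± 2.30 FPKM (SD, n = 3; log2 fold change 1.19 ± 0.19, adjusted p = 0.00810, limma). Under median-of-ratios scaling it was at 0.80 and not called (adjusted p = 0.0626, limma). The most abundant factors that were not called were Cox7a2l, the supercomplex factor related to Cox7a2 (217 and 184 FPKM, log2 fold change -0.23), Cox14 (95.1 and 93.3 FPKM, -0.01) and Higd2a (84.0 and 74.8 FPKM, -0.15).

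**Figure D5:**
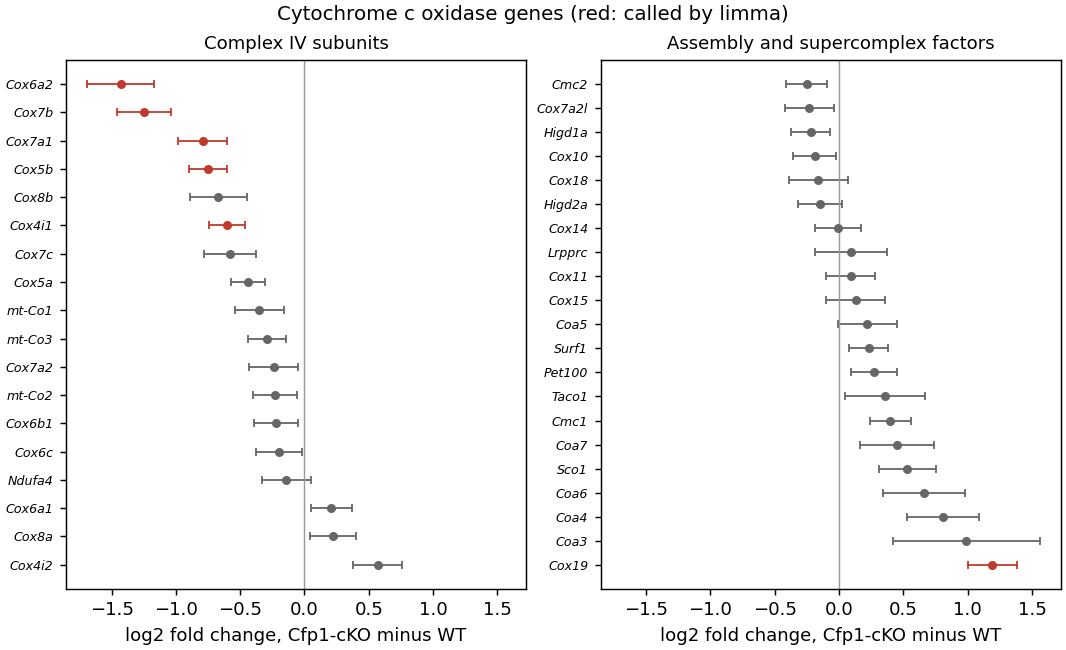
Log2 fold change, Cfp1-cKO minus WT, with SE (bars) of the tested complex IV subunits, at left, and assembly and supercomplex factors, at right, on the deposited scale; red marks genes called by limma. Cox6a2 (-1.43) and Cox7b (-1.25) are the lowest subunits, Cox4i2 (0.57) is the highest, and Cox19 (1.19) is the called factor.

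Genes most like the muscle forms were sought by the Pearson correlation, over the 6 libraries, of their log2(FPKM + 1) with the mean standardised value of Cox6a2, Cox7a1 and Cox8b, among the 3030 genes that averaged 10 FPKM or more. The 6 highest were Slc25a4 (0.988), Atp5o (0.985), Gstk1 (0.977), Mdh1 (0.975), Atp5f1 (0.974) and Cmss1 (0.973). Slc25a4, the ADP/ATP carrier of heart and muscle, was at 1920, 1904 and 1642 FPKM in the WT libraries, while Cfp1-cKO replicates 1, 2 and 3 had 1452, 1274 and 1261 FPKM. Among the members that did not enter the mean, r was 0.906 for Cox4i1, 0.773 for Cox7a2, -0.378 for Cox8a, -0.617 for Cox6a1 and -0.747 for Cox4i2. The 6 points share the genotype split and each library's scaling, so these values describe likeness of pattern only.

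Skeletal muscle and brown fat also express muscle forms of complex IV, and their markers were read as well. Of 9 skeletal muscle markers 3 were tested, of which Acta1 and Tnni2 were called higher and Ckm lower, and Myh1 was at 0 in all 3 WT libraries. Of 6 brown fat markers 3 were tested, and Cidea and Dio2 were called higher. The defining Ucp1 was not called and was at 0 in 3 of the 6 libraries. It was highest in Cfp1-cKO replicate 2, at 8.80 FPKM, followed by WT replicate 3, at 2.95 FPKM. Over all tested genes 21.1% were called higher and 1.68% lower. The part of either tissue in the levels of Cox7a1 and Cox8b was not tested.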

How the data were processed

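Libraries were made from 1 ug of total RNA with a TruSeq kit. The authors deposited FPKM per gene for each library, and per their notes to the archive the tools were CASAVA, TopHat2, Bowtie2 2.2.3, HISAT2 2.1.0, DESeq2 and HTSeq 0.6.0 on the GRCm38 build, in no given order. The 2 deposited tables held equal FPKM for 26881 genes. With gene lengths, 99.6% of genes gave whole fragments in every library (tolerance 0.02).

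Differences were tested with limma 3.58.1 (R 4.3.3) on log2(FPKM + 1), with a variance trend, for genes that averaged 1 FPKM or more. P-values were adjusted by Benjamini-Hochberg over the 11017 genes, and a gene was called at an adjusted p under 0.05 with an absolute log2 fold change above 0.5. Fold changes on this scale understate those of low genes. Shares were tested by exact permutation (Python 3.11.15, scipy 1.17.1). The script was tested on simulated data. Alternatives changed the pseudocount, filter, scaling, variance trend, replicate block, tool and libraries included. Genes named from the lists of other subunits and factors were up to 6 called genes per list and the 3 most abundant not called, with the 6 genes most like the muscle forms. The members and lists were chosen with earlier results of these data known. The extraction text in the labels speaks of retinas, while source and tissue are given as heart.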

Additional observations from a re-analysis of the deposited data

How the results depend on the processing

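Cox6a2 was called lower under all 16 alternatives, and the 4 share differences kept their direction under all 9 of theirs. Members called went from 3 to between 1 and 4 when a library was left out, with 1 without WT replicate 1, Cfp1-cKO replicate 2 or Cfp1-cKO replicate 3. The other complex IV genes called went from 3 to between 2 and 6, with 6 without WT replicate 3, and to 8, all higher, with cardiomyocyte-marker scaling. Those 8 of 31 tested stood beside 6764 of 11017 genes called higher under that scaling. Genes called over the whole table were 2510 and between 588 and 2789 with a library left out, 680 without WT replicate 1, 588 without Cfp1-cKO replicate 2 and 1086 without Cfp1-cKO replicate 3. They were 1609 with no filter, 1179 at a mean of at least 5 FPKM, 769 with median-of-ratios scaling, 1461 without mitochondrial and haemoglobin genes and 6825 with cardiomyocyte-marker scaling. The share of calls that were higher was 92.6% on the deposited scale and 53.4% with median-of-ratios. Directions turned for Cox6a1 (-0.23) and Cox8a (-0.23) with median-of-ratios and for Cox7a2 (0.24) with cardiomyocyte markers, and the cause was not tested. Cox7a1 was not called with no filter (adjusted p = 0.0528, limma).

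Same-numbered libraries correlated at 0.108, 0.036 and 0.104 in their deviations from the group means, not all over 0.1, so the numbers were taken as names. Each library did correlate best with its own number, which is a hint from the data and not the design. With a replicate block, 1749 genes, 4 members (with Cox8b at adjusted p = 0.0424, limma) and 4 other complex IV genes were called, and the exact permutation of shares within numbers gave p = 0.25, the smallest it allows. Depth limits Cox4i2, with 55 to 106 fragments a library, and 3 libraries a group limit every share test.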
